A study of Homo sapiens with 7 samples.

Results

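Vitamin A is carried into cells as retinol, and its active form, retinoic acid, is made in 2 oxidation steps. Short-chain dehydrogenases of the RDH family turn retinol into retinaldehyde, DHRS3 turns retinaldehyde back into retinol, and retinaldehyde dehydrogenases such as ALDH1A1 make retinoic acid. CRABP2 carries retinoic acid to the nucleus, where retinoic acid receptors (RARA, RARB and RARG) bind DNA as dimers with retinoid X receptors (RXRA and RXRB). In the urothelium this pathway is known for its part in development, in regeneration and in keeping the lining in its specialised state, which vitamin A deficiency replaces with a keratinised one.

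The genes described here are these 9 enzymes, carriers and receptors, chosen by name, and 8 of the 9 had a row among the 13872 genes of the deposited table. RARB had no row and was not analysed here. The samples were 7 cultures of the human urothelial carcinoma line UM-UC-3. There were 3 clones isolated for high aldehyde dehydrogenase activity with the ALDEFLUOR assay (H1, H6 and H10, ALDH-high), 3 clones isolated for low activity (L1, L3 and L8, ALDH-low) and 1 culture labelled wild type, with no replicate. Each clone gave 1 library and all come from 1 line, so n = 3 counts clones of UM-UC-3, and the spread between them may hold both clonal and technical differences. The series calls the ALDH-high clones stem-like cancer cells and the ALDH-low clones their counterparts. Values are CPM, read counts scaled to the size of each library.

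Depth was not stated by the source, and read numbers here were recovered from the steps of the CPM values. Recovered in this way it was even, with 24177114 to 25664901 reads in listed genes per library and 1 read worth 0.0393 to 0.041 CPM. Pearson correlations between libraries over all tested genes were 0.956 to 0.982 within the ALDH-high clones, 0.963 to 0.978 within the ALDH-low clones and 0.931 to 0.957 between the groups. The wild-type library stood nearer to the ALDH-high clones (0.923 to 0.961) than to the ALDH-low clones (0.911 to 0.921). Of 21 urothelial markers 5 had rows, the keratins KRT7, KRT8 and KRT18 and the transcription factor genes FOXA1 and PPARG, and the rest were not analysed here. Their summed level was 499.7 to 740.0 CPM in ALDH-high clones, 243 to 520 CPM in ALDH-low clones and 755 CPM in wild type, nearly all of it KRT8 and KRT18. These sums overlapped between the clone groups. KRT7 ran the other way without overlap, as 26.1% of all tested genes did not overlap in either direction. It was at 1.48 to 2.83 CPM in ALDH-high clones, 3.22 to 6.68 CPM in ALDH-low clones and 7.19 CPM in wild type. PPARG also had the lower mean in ALDH-high clones (0.87 against 3.78 CPM), with overlap. The part of these differences in the results was not tested. No marker on the fibroblast, leukocyte and endothelial lists had a row.

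The promoters of 4 members are shown, those of the RXRA and RXRB paralogs and of DHRS3 and RARB, textbook targets of retinoic acid. Each is the window that RefSeq's table lists first for the gene (GRCh38.p14), from 250 bases before to 50 after the start site and written 5′ to 3′ on the gene's strand. Capitals mark the receptor motif in any of 4 spellings on either strand: the form AGGTCA and its variant GGGTCA, or the form AGTTCA and its variant GGTTCA.
RXRA (chr9:134326205-134326504, plus strand): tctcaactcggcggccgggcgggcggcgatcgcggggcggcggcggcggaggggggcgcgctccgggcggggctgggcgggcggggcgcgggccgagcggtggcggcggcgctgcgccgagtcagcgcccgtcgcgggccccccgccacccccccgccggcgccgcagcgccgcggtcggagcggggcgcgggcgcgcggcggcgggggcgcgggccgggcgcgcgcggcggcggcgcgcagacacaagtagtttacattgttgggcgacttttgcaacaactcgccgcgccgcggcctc
RXRB (chr6:33200804-33201103, minus strand): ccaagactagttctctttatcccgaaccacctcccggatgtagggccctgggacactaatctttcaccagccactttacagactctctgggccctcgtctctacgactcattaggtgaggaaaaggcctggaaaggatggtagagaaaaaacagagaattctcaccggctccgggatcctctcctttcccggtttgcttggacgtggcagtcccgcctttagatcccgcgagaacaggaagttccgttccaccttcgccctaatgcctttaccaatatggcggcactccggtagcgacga
DHRS3 (chr1:12618161-12618460, minus strand): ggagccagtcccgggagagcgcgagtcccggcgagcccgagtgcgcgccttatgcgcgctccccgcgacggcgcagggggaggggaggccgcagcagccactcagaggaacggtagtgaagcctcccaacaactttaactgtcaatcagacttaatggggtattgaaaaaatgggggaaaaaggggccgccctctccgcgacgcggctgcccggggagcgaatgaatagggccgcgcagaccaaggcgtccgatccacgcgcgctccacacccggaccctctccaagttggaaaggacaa
RARB (chr3:25428013-25428312, plus strand): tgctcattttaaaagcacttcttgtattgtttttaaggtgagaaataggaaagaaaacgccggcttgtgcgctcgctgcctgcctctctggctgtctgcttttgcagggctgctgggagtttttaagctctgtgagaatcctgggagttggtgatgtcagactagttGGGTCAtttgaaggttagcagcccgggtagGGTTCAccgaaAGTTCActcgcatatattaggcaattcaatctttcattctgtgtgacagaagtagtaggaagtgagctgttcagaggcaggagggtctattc

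The RARB window held the motif as a direct repeat with a 5-base gap (DR5), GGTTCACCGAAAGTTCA, which begins 53 bases before the start site and is the arrangement that RAR and RXR dimers are known to bind. A DR5 of these 4 spellings was present in 31 of the 35116 windows of the whole table (0.088%) and in 1 of the 17 windows of 8 members (all but RDH10). A single motif occurred in 38.6% of all windows and in 8 of the 17 member windows, among them 2 other listed windows of DHRS3 and 1 of RXRA, and repeats with gaps of 1 or 2 bases (DR1 and DR2) in 0 of the 17. The RXRA window had 84% G and C and 65 CpG dinucleotides, against 54% and 17 in the RXRB window and medians of 58.7% and 14 over all windows. These matches describe letters in the reference, not binding in these cells.

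Setting the clones of high activity against those of low activity asks whether cells sorted on an enzyme activity that can end in retinoic acid also differ in the genes around that step. None of the 7 members tested rose or fell at an adjusted p under 0.05 by limma (Benjamini-Hochberg over 12705 genes, of which 170, or 1.34%, passed). At an unadjusted p under 0.05 there were 2 members, RDH10 and RXRA, where 19.7% of all tested genes were below that value. edgeR, which passed 1.02% of genes, also passed 0 members, and DESeq2, which passed 7.92% of genes, passed 1 member, RDH10. The median change of the 7 was 0.005 log2 units, against 0.004 over all tested genes, with 4 members higher and 3 lower in ALDH-high clones. CRABP2 lay below the filter of 1 CPM in at least 3 clones and was not tested.

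**Figure D1:**
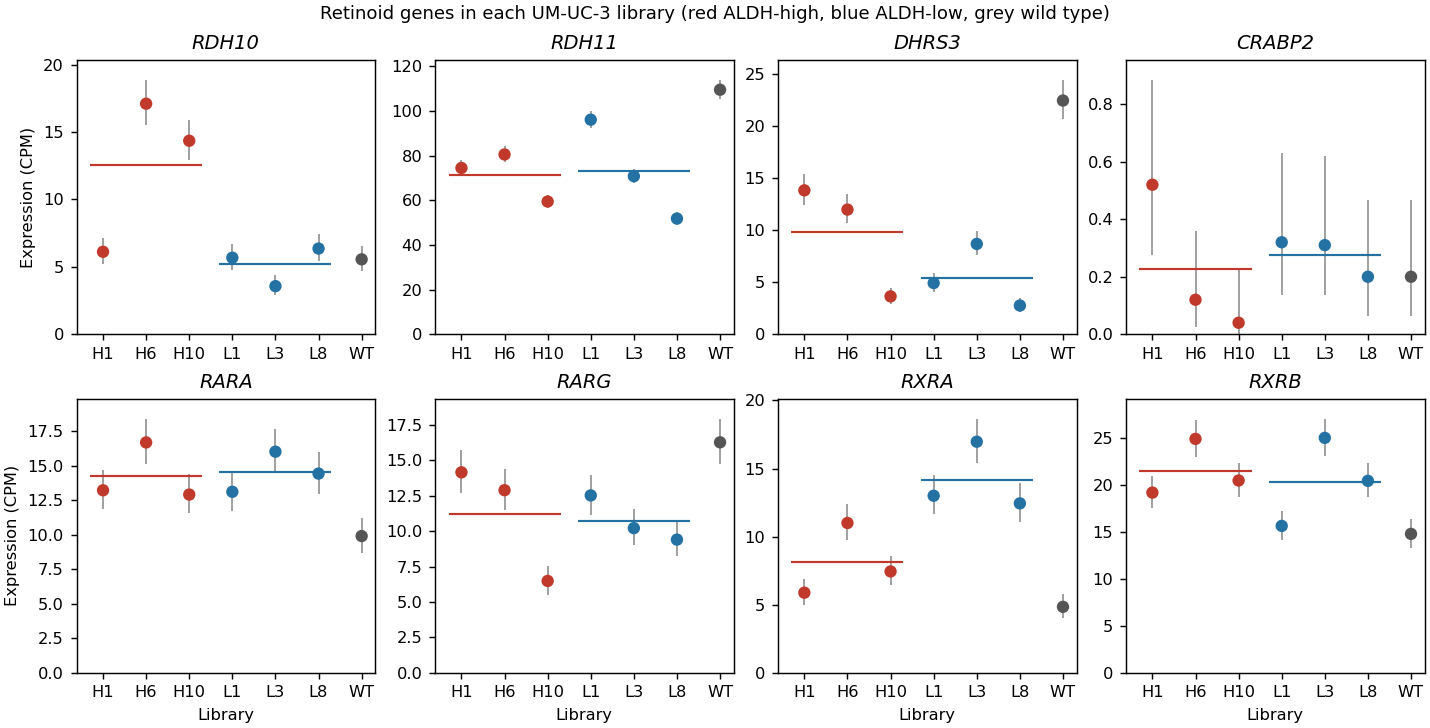
Expression (CPM, axis from 0) of the 8 members in each library: red points ALDH-high clones, blue ALDH-low clones, grey wild type (WT), horizontal lines the means of 3 clones, and grey bars the 95% counting interval of the reads. RXRA is the only panel in which the 3 red points, 5.88 to 11 CPM, all lie below the 3 blue points, 12.44 to 16.97 CPM.

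RDH10 (ENSG00000121039) makes retinaldehyde from retinol and is the main enzyme of that step in embryos. It was at 6.12, 17.11 and 14.36 CPM in H1, H6 and H10, at 5.68, 3.57 and 6.36 CPM in L1, L3 and L8, and at 5.56 CPM in wild type. H6 and H10 stood above every other library, while H1 lay among the ALDH-low clones, just under L8, so the groups overlapped. The means were 12.5 ± 5.72 and 5.20 ± 1.46 CPM (SD, n = 3 each), a 2.41-fold difference. The change was 1.05 log2 units (SE 0.371, 95% interval 0.19 to 1.90, limma adjusted p = 0.179), on the log2(CPM + 1) scale used for the main limma fit. Without H1, the lowest ALDH-high clone, it was 1.46 log2 units (limma adjusted p = 0.0586), and with DESeq2 1.26 log2 units (adjusted p = 0.043). Leaving out any clone other than H1 gave a limma adjusted p of 0.276 to 0.375, and edgeR gave an adjusted p of 0.167. Changes by DESeq2 and edgeR are of the recovered reads, without the added 1, so their size is not on the limma scale. Reads numbered 91 to 417 per library, and the counting intervals of H6 (15.5 to 18.8 CPM) and H1 (5.19 to 7.17 CPM) did not meet. These intervals cover counting error only, not variation between clones or libraries.

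RDH11 (ENSG00000072042), a microsomal retinaldehyde reductase, was at 74.51, 80.57 and 59.48 CPM in H1, H6 and H10 and at 96.16, 70.83 and 51.84 CPM in L1, L3 and L8. The ALDH-low clones held both the highest and the lowest clone value, and their means were 71.5 ± 10.9 and 72.9 ± 22.2 CPM. The change was 0.005 log2 units (SE 0.236, 95% interval -0.54 to 0.55, limma adjusted p = 0.992), so a change of 1 log2 unit in either direction lay outside the interval. Wild type, at 109.59 CPM, was above all 6 clones.

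DHRS3 (ENSG00000162496) reduces retinaldehyde to retinol, is known to act in a complex with RDH10, and is itself induced by retinoic acid. It was at 13.83, 11.98 and 3.64 CPM in H1, H6 and H10, and at 4.92, 8.68 and 2.76 CPM in L1, L3 and L8. The lowest ALDH-high clone, H10, fell below L1 and L3. The wild-type library, at 22.46 CPM, was 1.62-fold above the highest clone and 2.94-fold above the clone mean. The groups had 9.82 ± 5.43 and 5.45 ± 2.996 CPM, a change of 0.68 log2 units (SE 0.498, 95% interval -0.46 to 1.83, limma adjusted p = 0.488). Its interval was the widest of the 7. Its clones spread 5.01-fold, with a within-group SD of 0.808 log2 units. Among 636 tested genes of like expression, 94.2% had a smaller SD within the groups.

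CRABP2 (ENSG00000143320), the carrier that hands retinoic acid to the receptors, was near the detection limit in every library. It was at 0.52, 0.12 and 0.04 CPM in H1, H6 and H10, at 0.32, 0.31 and 0.20 CPM in L1, L3 and L8, and at 0.20 CPM in wild type. These values rest on 1 to 13 reads per library, with 17 reads in the ALDH-high clones against 21 in the ALDH-low clones. Pooled over the clones, the ratio was 0.82 with an exact 95% counting interval of 0.406 to 1.63. A difference under that size was not detectable at this depth. The interval covers counting error only, not variation between clones, and H1 alone gave 13 of the 17 ALDH-high reads. Every listed gene reaches 0.52 CPM in some library, and CRABP2 did so only in H1. Its row, and so the pooled ratio, depends on that 1 ALDH-high value, and the ratio cannot show whether the groups are alike. In these libraries 3 reads, the limit that a count of 0 allows, corresponded to 0.118 to 0.123 CPM.

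Of the retinoic acid receptors, RARA (ENSG00000131759), the broadly expressed alpha form, was the most even member. It was at 13.23, 16.70 and 12.92 CPM in H1, H6 and H10 and at 13.12, 16.03 and 14.44 CPM in L1, L3 and L8, so the groups overlapped along their whole length. The means were 14.3 ± 2.10 and 14.5 ± 1.46 CPM, a change of -0.03 log2 units (SE 0.184, 95% interval -0.45 to 0.40, limma adjusted p = 0.951). Its clones spanned 1.29-fold, the narrowest range of the 8 members, and wild type, at 9.91 CPM, was below all of them.

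RARG (ENSG00000172819), the gamma receptor known chiefly from epithelia, was at 14.15, 12.89 and 6.48 CPM in H1, H6 and H10. The ALDH-low clones L1, L3 and L8 had 12.52, 10.21 and 9.40 CPM and lay between H6 and H10. The group means were 11.2 ± 4.11 and 10.7 ± 1.62 CPM, and the change of -0.001 log2 units had a 95% interval of -0.67 to 0.67 (limma adjusted p = 0.999). H10 was low for RARG as it was for DHRS3, and without H10 the RARG change was 0.32 log2 units (limma adjusted p = 0.551). Wild type, at 16.27 CPM, was above all clones.

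RXRA (ENSG00000186350), the obligate partner of the RARs and of PPAR, LXR and vitamin D receptors, was the 1 member whose groups did not overlap. That was also so for 26.1% of all tested genes. It was at 5.88, 11 and 7.44 CPM in H1, H6 and H10 and at 13, 16.97 and 12.44 CPM in L1, L3 and L8. The highest ALDH-high clone, H6, was just under the lowest ALDH-low clone, L8, and their counting intervals (9.72 to 12.4 and 11.1 to 13.9 CPM) met. The means were 8.11 ± 2.62 and 14.1 ± 2.47 CPM, 1.74-fold lower in ALDH-high clones. The change of -0.76 log2 units (SE 0.252, 95% interval -1.34 to -0.18) had an adjusted p of 0.159 by limma, 0.171 by edgeR and 0.0861 by DESeq2. Wild type had 4.84 CPM, below every clone and next to H1.

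RXRB (ENSG00000204231), the paralog of RXRA that pairs with the same receptors, showed no such separation. It was at 19.19, 24.91 and 20.48 CPM in H1, H6 and H10 and at 15.64, 25.02 and 20.44 CPM in L1, L3 and L8. The highest and the lowest clone were both ALDH-low. The change was 0.09 log2 units (SE 0.212, 95% interval -0.40 to 0.58, limma adjusted p = 0.842), from means of 21.5 ± 3 and 20.4 ± 4.69 CPM. Wild type, at 14.79 CPM, was again below all clones. RXRB shares exonic sequence on the opposite strand with SLC39A7, and RARA and RDH10 with antisense genes, in GENCODE release 29. The table marks strand, but no source used here says how reads were counted. RDH11 shares exonic sequence on its own strand with AL049779.1.

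**Figure D2:**
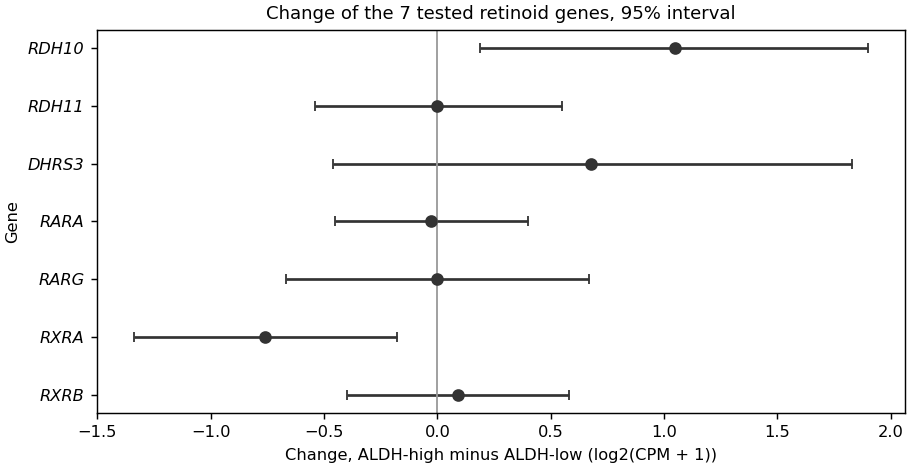
Change of the 7 tested members (x axis, ALDH-high less ALDH-low clones in log2(CPM + 1), points with 95% intervals from limma, 3 clones per group). Only the intervals of RDH10 (0.19 to 1.90) and RXRA (-1.34 to -0.18) leave out 0, before adjustment for the number of genes tested.

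Ratios between members within a library do not depend on how the libraries were scaled. They are read across libraries only, since gene length and capture differ between genes. Of 4 ratios chosen after the values were seen, RXRA to RXRB was 0.306, 0.442 and 0.363 in H1, H6 and H10 and 0.831, 0.678 and 0.609 in L1, L3 and L8. The groups did not overlap, and the ratio in wild type, 0.327, fell among the ALDH-high clones. The difference was -0.93 log2 units (means -1.45 ± 0.26 and -0.51 ± 0.23, two-sided exact permutation p = 0.1, 0.2 adjusted over the 4 ratios), and 0.1 is the smallest p that 3 against 3 can give. RXRA to RARA showed the same separation, at 0.444, 0.659 and 0.576 against 0.991, 1.06 and 0.862, with wild type at 0.488 (difference -0.81 log2 units, exact permutation p = 0.1, adjusted 0.2). The changes of RXRB and RARA themselves were 0.09 and -0.03 log2 units, so both ratios largely restate the values of RXRA and are no separate support for them.

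The ratio of RDH10 to DHRS3, the enzymes that form and remove retinaldehyde, did not separate the groups. It was 0.443, 1.43 and 3.95 in H1, H6 and H10, 1.15, 0.411 and 2.3 in L1, L3 and L8, and 0.248 in wild type. H10 and L8 had the highest values and H1, L3 and wild type the lowest (difference 0.40 log2 units, exact permutation p = 0.7, adjusted 0.933). RARA to RARG was between 0.935 and 1.99 in the clones with full overlap (exact permutation p = 1.0), and 0.609 in wild type.

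**Figure D3:**
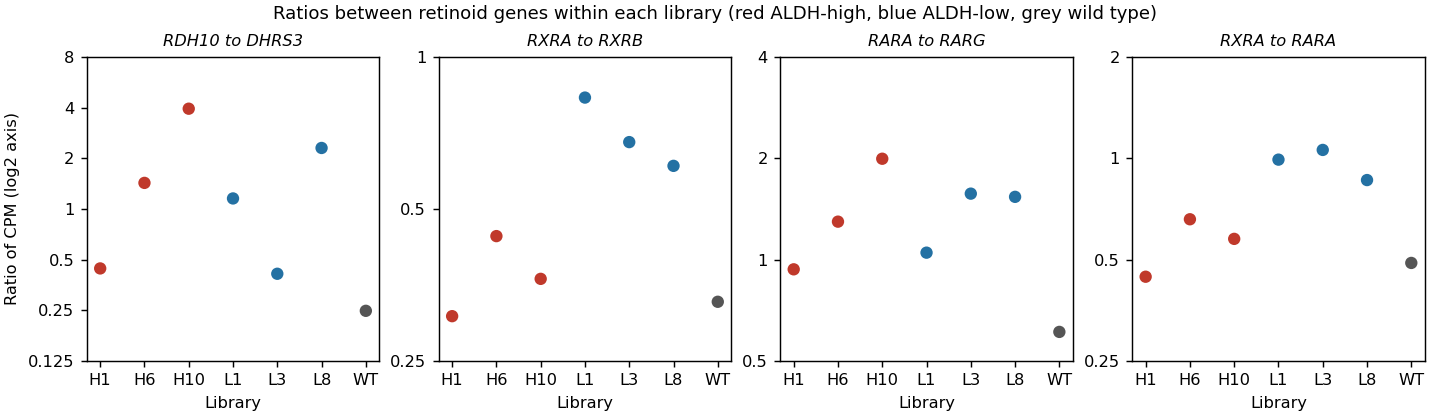
Ratio of CPM between 2 members in each library (log2 axis): red ALDH-high clones, blue ALDH-low clones, grey wild type (WT). RXRA to RXRB is at most 0.442 in ALDH-high clones and at least 0.609 in ALDH-low clones, and RDH10 to DHRS3 ranges from 0.411 to 3.95 over the clones with no separation.

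The wild-type culture lay outside the range of the 6 clones for 6 of the 7 tested members, above it for RDH11, DHRS3 and RARG and below it for RARA, RXRA and RXRB. Over all tested genes the wild-type library was outside the clone range for 48% (22.6% above and 25.4% below), so the members' share has to be read against a high background, and without a replicate there is no test. The wild-type level was 0.435 times the clone mean for RXRA, 0.688 times for RARA and 0.706 times for RXRB, against 1.49 times for RARG and 1.52 times for RDH11. RDH10 at 5.56 CPM and CRABP2 at 0.20 CPM were inside the clone range.

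The members were also compared with each other across the 7 libraries. Of 21 pairs of tested members, 0 passed Benjamini-Hochberg adjustment of the exact permutation p. RARA and RXRB had the smallest p (Pearson r = 0.89, exact permutation p = 0.00397, adjusted 0.083; Spearman rho = 0.75, exact permutation p = 0.0663, adjusted 0.348), with r = 0.78 without the 2 libraries farthest from the median of RARA. DHRS3 and RARG had the highest rank correlation (Pearson r = 0.81, exact permutation p = 0.0246, adjusted 0.181; Spearman rho = 0.93, exact permutation p = 0.00675, adjusted 0.142). Their r was 0.76 without the 2 libraries farthest from the median of DHRS3. RDH10 and DHRS3 gave r = -0.14 (exact permutation p = 0.742) and rho = -0.32 (exact permutation p = 0.498).

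Genes with the most similar profiles are given as a description, since with 7 libraries and 12705 genes high correlations are common: 28 to 215 tested genes had r above 0.9 with any 1 member. For RXRA these were ABCC4, a drug and nucleotide exporter (Pearson r = 0.991), TBXAS1, thromboxane synthase (0.988), and PAIP1, a translation factor (0.984). For RDH10 they were CACHD1, CENPV and AP001065.15 (0.987 to 0.99), and for DHRS3 SNX2, LINC00271 and XRCC6BP1 (0.977 to 0.995). RARA was nearest to AFTPH, TEX10 and TAF6L (0.972 to 0.989), and RARG to AP001816.1, ZYG11B and SERTAD3 (0.967 to 0.983). RXRB was nearest to MIR17HG, NUP214 and AC004463.6 (0.966 to 0.979), and RDH11 to HIAT1, CNN3 and MARCH9 (0.96 to 0.985). No gene appears for 2 members.

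The rest of the pathway was followed in 6 lists of 132 genes, of which 63 were tested. By limma 3 rose in ALDH-high clones and 0 fell, where 0.645% and 0.693% of all tested genes rose and fell, and the 63 had a median change of -0.07 log2 units (25 higher, 38 lower). Among the 3, ALDH1A1 and HSD17B6 met the filter of 1 CPM only through the ALDH-high clones. The clones were isolated by aldehyde dehydrogenase activity, so the ALDH1A1 call is not independent of how the groups were formed. Enzymes that make or break down retinoic acid were represented by ALDH1A1 alone, 1 of 10 listed. ALDH1A1, the retinaldehyde dehydrogenase, was at 96.32, 33.37 and 42.20 CPM in H1, H6 and H10, at 0, 0.08 and 0 CPM in L1, L3 and L8, and at 37.85 CPM in wild type (5.68 log2 units, limma adjusted p = 0.000627). It had 4292 reads in ALDH-high against 2 in ALDH-low clones. Its order within the ALDH-high clones was the reverse of that of RDH10, since H1 had the most ALDH1A1 and the least RDH10.

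By limma, which called 0.645% of all tested genes higher and 0.693% lower, 1 of 11 tested retinol and retinal oxidoreductases rose and 0 fell. That was HSD17B6, a short-chain dehydrogenase that acts on androgens and retinol, at 2.78, 2.54 and 2.96 CPM in H1, H6 and H10 against 0.48, 0.59 and 0.40 CPM in L1, L3 and L8. Wild type was higher still, at 5.12 CPM. The change was 1.34 log2 units (SE 0.200, limma adjusted p = 0.0287) and lost its call when any clone other than L3 was left out (limma adjusted p up to 0.131). HSD17B6 met the filter of 1 CPM only through the ALDH-high clones, since all ALDH-low clones were below it. Chosen after its values were seen, AKR1C1, an aldo-keto reductase, was at 0, 0.04 and 0 CPM in H1, H6 and H10 and at 29.48, 1.49 and 15.28 CPM in L1, L3 and L8 (adjusted p = 0.0812 by limma and 0.0383 by edgeR). AKR1C1 in turn met the filter only through the ALDH-low clones.

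Of 6 tested genes of retinoid uptake, storage and binding, 1 rose and 0 fell by limma (0.645% and 0.693% of all tested genes). FABP5, a fatty acid carrier that can also deliver retinoic acid to PPAR delta, was at 376.75, 295.09 and 391.60 CPM in H1, H6 and H10 against 156.76, 153.40 and 149.96 CPM in L1, L3 and L8. Wild type lay between the groups at 231.48 CPM. Its change was 1.19 log2 units (SE 0.150, limma adjusted p = 0.0155) from means of 354 ± 51.97 and 153 ± 3.4 CPM, and its call was lost without H10, L1 or L8 (limma adjusted p up to 0.0881). Of the 2 carriers of retinoic acid with rows, FABP5 and CRABP2, only FABP5 passed the filter. RETSAT, on the same list and chosen after its values were seen, was at 4.21 against 7.87 CPM (limma adjusted p = 0.13). DESeq2, which passed 7.92% of all genes, passed RETSAT as lower in ALDH-high clones (adjusted p = 0.0437), and edgeR did not.

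None of the 7 tested RXR partners passed by limma, edgeR passed 0 (1.02% of all genes) and DESeq2 1 (7.92% of all genes). An unadjusted p under 0.05 was reached by 3 of the 7, against 19.7% of all tested genes. In ALDH-high clones 5 of the 7 were lower, with a median of -0.50 log2 units, where 6298 of all 12705 tested genes were lower. PPARD, the receptor that FABP5 serves, was at 12.1 ± 0.663 against 25.96 ± 9.85 CPM (-0.97 log2 units, limma adjusted p = 0.134). In the ALDH-low clones its values were 33.48, 14.81 and 29.60 CPM in L1, L3 and L8. Without L3, the lowest of these, it passed (limma adjusted p = 0.0286), as it did with DESeq2 (adjusted p = 0.0148). Leaving out any clone other than L3 gave a limma adjusted p of 0.183 to 0.32, and edgeR gave an adjusted p of 0.117. PPARA, a fatty acid receptor, was at 1.26 against 3.29 CPM (limma adjusted p = 0.122) and NR1H2, the LXR beta gene, at 83.2 against 62.9 CPM (limma adjusted p = 0.177).

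All 22 listed coregulators of nuclear receptors were tested and 0 passed by limma (2 at an unadjusted p under 0.05, against 19.7% of all tested genes). By edgeR 0 passed (1.02% of all genes) and by DESeq2 1 (7.92% of all genes). The coactivator gene NCOA3 was at 19.8 ± 2.10 against 30.0 ± 4.11 CPM (-0.57 log2 units, limma adjusted p = 0.134, DESeq2 adjusted p = 0.0382). PELP1, another coactivator, was at 45.5 against 32.9 CPM (limma adjusted p = 0.187). Of 16 tested retinoic acid response genes 0 passed by limma (3 at an unadjusted p under 0.05, near the 19.7% of all tested genes). By edgeR, which passed 1.02% of all genes, 0 passed. DESeq2, which passed 7.92% of all genes, passed 2, DUSP6 and HOXD4. The 16 had a median change of -0.05 log2 units, with 5 higher and 11 lower, where 6407 of all tested genes were higher and 6298 lower. DUSP6, an ERK phosphatase, was at 71.2 ± 17.4 against 26.8 ± 8.80 CPM (1.40 log2 units, limma adjusted p = 0.0607, DESeq2 adjusted p = 0.000642). HOXD4, a homeobox gene with a retinoic acid response element, was at 11.9 ± 1.68 against 20.95 ± 4.12 CPM (-0.76 log2 units, limma adjusted p = 0.107, DESeq2 adjusted p = 0.018). BHLHE40, a circadian repressor, was at 5.32 against 12.3 CPM (limma adjusted p = 0.203).

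**Figure D4:**
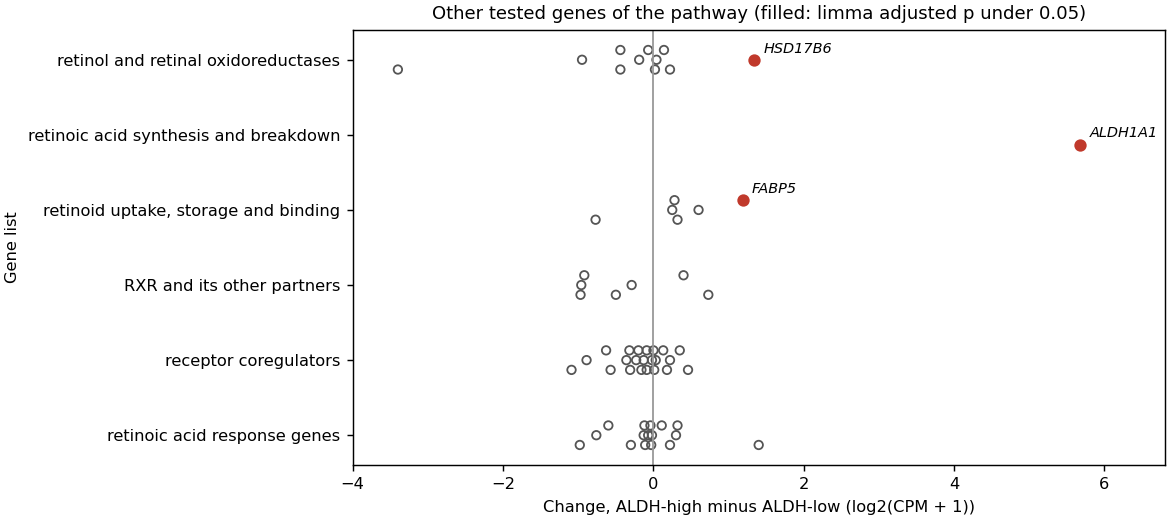
Change of the other tested pathway genes (x axis, ALDH-high less ALDH-low clones in log2(CPM + 1)) in each of 6 lists (rows, with points spread vertically for legibility). The 3 filled points, HSD17B6, ALDH1A1 and FABP5, passed the limma threshold, all to the right of 0, at 1.34, 5.68 and 1.19 log2 units, and open points did not pass.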

How the data were processed

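Total RNA of 7 UM-UC-3 cultures was sequenced. The deposited table gives CPM (read counts scaled by the authors to a library size they do not state) to 2 decimals, and every gene reaches 0.52 CPM in some library. The submitters' processing notes name BWA 0.5.9, hg19 and mm9 without a role, and the deposited column names carry the word CAGEr, the name of software for 5′-end tags. Library type, counting and filtering are not given in the sources used here. Columns sum to 967085 to 1019855 CPM. Whole reads were recovered from the step of each column: 99.75 to 100% of values were whole multiples within 0.0051 CPM (78.7 to 99.8% within 0.1 read). No member shares all 7 values with another gene, as 1017 genes do.

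ALDH-high and ALDH-low clones were compared with limma 3.58.1 (R 4.3.3; eBayes with a trend, two-sided, Benjamini-Hochberg threshold 0.05) on log2(CPM + 1), over the 12705 genes that reach 1 CPM in 3 or more of the 6 clones. edgeR 4.0.16 and DESeq2 1.42.0 were run on the recovered reads as alternatives added after the data were seen. Further alternatives left out each clone, fitted all 7 libraries together, dropped the trend, rescaled by median ratios, set the filter to none or 5 CPM, or took pseudocounts of 0.1 or 5. The read recovery and the limma fit were tested on simulated data. For limma these had a fixed spread for all genes and not that of these clones, so they do not bear on the calls reported here. The text names all members, and from each pathway list the genes called or otherwise the 3 with the smallest p. One gene that this rule names is not reported here. For each member it also names the 3 genes of most similar profile. Members and lists were chosen with earlier results of these data known.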

Additional observations from a re-analysis of the deposited data

How the results depend on the processing

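The count of 170 genes called was 86 with a filter at 5 CPM and 1004 with DESeq2, and 34 to 173 with 1 clone left out. The members called stayed at 0 except with DESeq2, which called 1. The pathway genes called went from 3 to 9 with DESeq2 and were 1 to 5 with 1 clone left out, with ALDH1A1 called in each of these settings. RDH10, DHRS3 and RXRA kept their direction in all 16 alternatives: with 1 clone left out their changes were 0.783 to 1.456, 0.347 to 1.211 and -0.978 to -0.577 log2 units. The other 4 members, with changes near 0, turned sign. RDH11 had -0.015 with median-ratio scaling, -0.061 with edgeR, -0.054 with edgeR's RLE factors and -0.054 with DESeq2, and -0.215 to 0.224 with 1 clone left out. RARG had 0.012 with a pseudocount of 5, 0.031 with edgeR, 0.038 with RLE factors and 0.038 with DESeq2, and -0.191 to 0.318 with 1 clone left out. RARA ranged from -0.138 to 0.041 and RXRB from -0.077 to 0.246 with 1 clone left out. Without a filter CRABP2 changed by -0.08 log2 units (limma adjusted p = 0.864). The median over all genes moved by under 0.1 log2 units in every setting. No paired analysis was possible because the ALDH-high and ALDH-low clones share only the number 1, which names a clone and pairs nothing.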
